A study of Mus musculus with 18 samples.

Results

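The 32 genes described here are transcripts of choroid plexus epithelium, the secretory cell layer that lies inside the brain ventricles. They were chosen as a list of symbols and matched to the gene identifiers of the count table. All 32 had enough counts to be tested, out of 16738 genes tested and 57180 identifiers listed. The study sequenced hippocampal RNA of 18 male C57BL/6J mice in adolescence, with 1 library per mouse. Of these, 6 mice had chronic social defeat stress (CSDS, repeated defeat by a resident mouse in its cage) together with aerobic exercise training, 6 had CSDS alone and 6 were untreated controls. All mice carried the wild-type genotype, and all libraries have the same batch label. Training began a week ahead of the defeat sessions and went on through them. Tissue was snap-frozen after behavioural testing, and stranded libraries were made from poly(A) RNA of samples whose integrity number reached 7.

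Choroid plexus epithelium makes cerebrospinal fluid by moving sodium, bicarbonate, chloride and water across its apical face, and its tight junctions form the barrier between blood and that fluid. It also secretes carrier proteins, transthyretin above all, and takes up folate and other nutrients for the brain. The plexus of the lateral ventricle is attached along the fimbria, next to the hippocampus, and is not part of the hippocampus itself. In tissue RNA, fewer cells of a type and less RNA per cell cannot be told apart, so the levels below are levels in each dissected sample.

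Total counts were 18911080 to 24136591 per library. Some libraries stood apart in their levels of genes that mark single brain regions. The mean log2 CPM (CPM are counts scaled to a common library size) of 14 thalamic genes was 6.06 in CSDS with exercise replicate 6, 4.77 in CSDS with exercise replicate 3, 5.25 in control replicate 3 and 4.32 in control replicate 1, against 2.87 to 3.38 in the other 14 libraries. Tcf7l2, a transcription factor of thalamic neurons, was at 143, 33.3, 70.0 and 28.8 CPM in these 4 libraries and at 7.92 CPM or less elsewhere. Control replicate 2 differed from the other 17 libraries in another way. The mean level of 10 dentate gyrus genes was 2.27 as log2 CPM in that library, against 4.96 to 6.01 in the others, and that of 12 neocortical genes was 6.04 against 3.98 to 4.62. Prox1, which marks granule neurons of the dentate gyrus, had 10.4 CPM in it and a median of 93.3 CPM over the controls. The same library was the lowest of the 6 controls for 32 of the 32 choroid plexus genes and the lowest of all 18 for 22 of them. The median fold changes, the fold changes of Ttr and the count moving with Ttr are given below with and without these libraries.

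Ttr encodes transthyretin, the carrier of thyroid hormone and retinol-binding protein, and is the most abundant transcript of this epithelium. Its levels were 34.3, 6141, 2594, 26.4, 87.2 and 3819 CPM in the 6 mice with CSDS and exercise. They were 1657, 77.4, 6133, 149, 7939 and 50.9 CPM in the 6 CSDS mice, and 5189, 12.7, 3346, 4427, 2404 and 3529.7 CPM in the 6 controls. The libraries fell into a high and a low set with none between 149 and 1657 CPM. Ttr was above 1000 CPM in 3 of 6 mice with CSDS and exercise, 3 of 6 CSDS mice and 5 of 6 controls, a line drawn after the values were seen. The 4 libraries with high thalamic levels were all among these 11. Both stressed groups thus hold libraries from near the bottom and near the top of the whole range, and their medians fall in or beside the empty interval (1340.4 CPM with exercise and 903 CPM with CSDS alone, against 3438 CPM in controls). The groups overlapped.

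**Figure D1:**
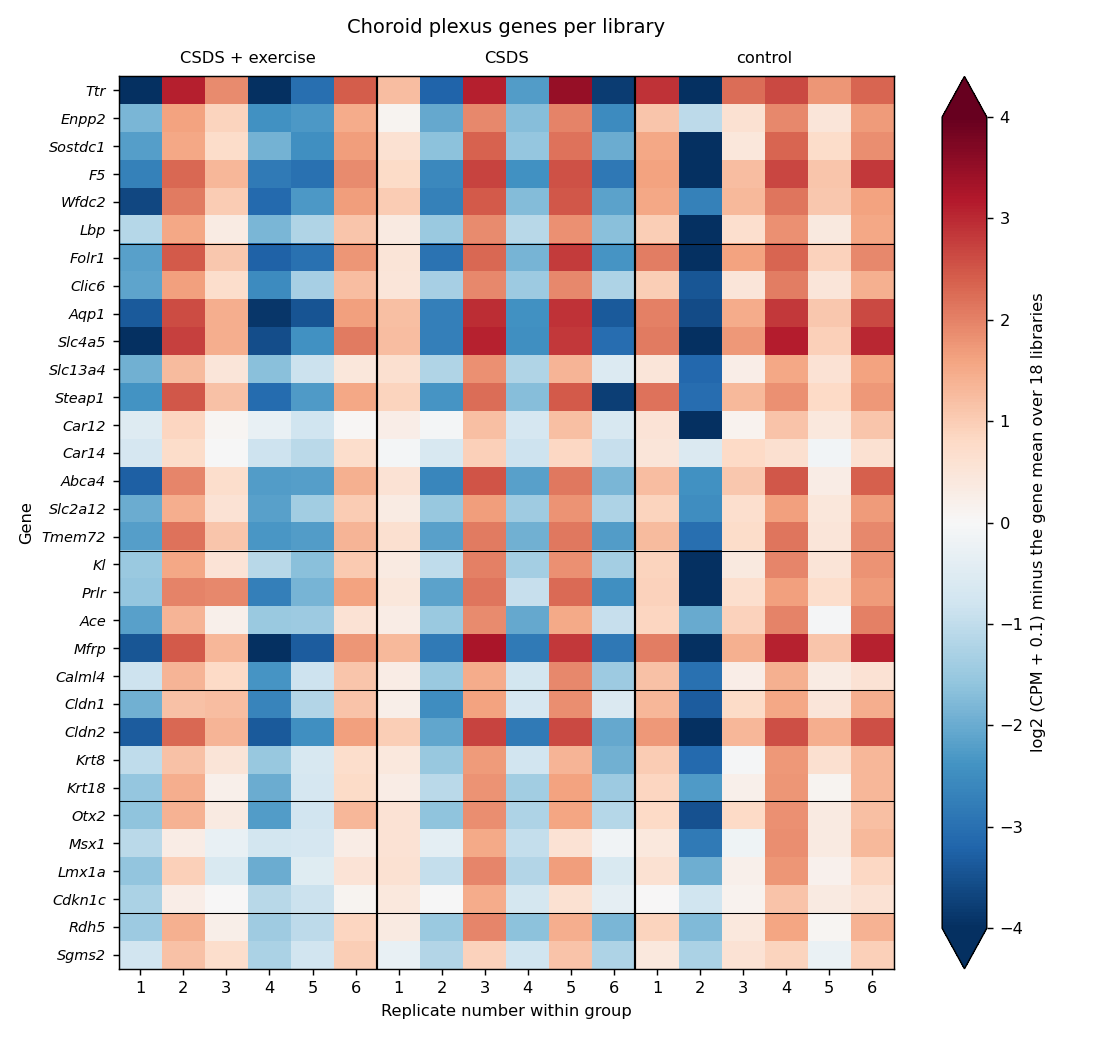
Levels of the 32 choroid plexus genes (rows, grouped by role and separated by thin lines) in the 18 libraries (columns, by group and replicate number). Colour is log2 (CPM + 0.1) minus the gene's mean over 18 libraries, with values beyond 4 in either direction drawn in the end colours. The same columns are red or blue in nearly every row, including 5 red columns of 6 among controls and 3 of 6 in each stressed group.

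Together the 32 genes took 0.0273% of a library's counts in CSDS with exercise replicate 4 and 1.2% in CSDS replicate 5, the extremes of the 18 libraries. Their summed level had a median of 2374 CPM in mice with CSDS and exercise (286 to 9298), 1702 CPM in CSDS mice (330 to 11864) and 5977 CPM in controls (361 to 8361). Without control replicate 2 the controls ran from 3856 to 8361 CPM, within the span of either stressed group. Ttr made up 50.5% to 70.3% of the counts of the 32 genes in the 11 libraries above 1000 CPM of Ttr. In the other 7 libraries its share was 3.51% to 30.0%. Per kilobase of exon, Ttr had a median level over 18 libraries of 2107 CPM, Enpp2 of 155 CPM, Clic6 of 12.6 CPM and Ace of 10.3 CPM, and Lmx1a the lowest of the 32 at 0.395 CPM.

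These genes were among the most variable in the hippocampal libraries. Their median standard deviation of log2 CPM over 18 libraries was 1.69, against 0.29 for all genes tested. Of all genes ranked by that deviation, 17 of the 32 stood in the first 100 and 28 in the first 300. Ttr was at rank 2, Slc4a5 at rank 3, Mfrp at rank 4 and Aqp1 at rank 7, and the least variable of the 32 was Car14 at rank 1206.

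Among the other secreted proteins, Enpp2, the enzyme that makes lysophosphatidic acid, had the highest level after Ttr. It had a lowest, median and highest level of 113, 644 and 1863 CPM in mice with CSDS and exercise, 105, 423 and 2385 CPM in CSDS mice, and 294, 1123 and 2288 CPM in controls. Its lowest control, replicate 2, stood above all 6 low libraries of the stressed groups, although it was the lowest of all for Ttr. Lbp, which binds bacterial lipopolysaccharide, was at 3.60, 11 and 37.8 CPM in mice with CSDS and exercise, 4.0, 11.4 and 48.4 CPM in CSDS mice, and 0.726, 23.1 and 46.0 CPM in controls. Wfdc2, a secreted protein of the whey acidic protein family, was at 0, 1.29 and 5.17 CPM with CSDS and exercise, 0.0937, 1.35 and 6.87 CPM with CSDS, and 0.0908, 3.30 and 5.43 CPM in controls. All 3 groups overlapped for each of these genes. Sostdc1, a secreted antagonist of bone morphogenetic proteins, ranged from 0.454 CPM in control replicate 2 to 56.0 CPM in CSDS replicate 3. F5, coagulation factor V, ranged from 0.454 CPM in the same control library to 92.6 CPM in control replicate 6.

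The transport genes include the apical machinery of fluid secretion. Folr1, the folate receptor that carries folate into cerebrospinal fluid, had a lowest, median and highest level of 0.845, 10.3 and 48.6 CPM in mice with CSDS and exercise, 1.03, 7.48 and 61.1 CPM in CSDS mice, and 0.363, 30.1 and 44.6 CPM in controls. Aqp1, the water channel of the apical membrane, was at 0.534, 13.3 and 56.9 CPM with CSDS and exercise, 0.818, 11.5 and 73.4 CPM with CSDS, and 0.681, 32.2 and 67.2 CPM in controls. Slc4a5, a sodium bicarbonate cotransporter, was at 0.183, 11.4 and 52.8 CPM with CSDS and exercise, 0.863, 9.92 and 66.6 CPM with CSDS, and 0.0908, 29.5 and 69.2 CPM in controls. For these 3 genes the same 11 libraries were high as for Ttr, with no library between the sets. Steap1, a member of a metalloreductase family, was at 0.133, 2.30 and 11 CPM with CSDS and exercise, 0.0454, 2.04 and 10.7 CPM with CSDS, and 0.136, 5.60 and 8.85 CPM in controls. Slc13a4, a sodium sulfate cotransporter, was at 4.35, 16.0 and 40.2 CPM with CSDS and exercise, 7.13, 18.8 and 60.1 CPM with CSDS, and 1.82, 24.1 and 51.6 CPM in controls. In the 7 libraries low for Ttr, Steap1 was at 0.509 CPM or less, while Slc13a4 reached 11.4 CPM in CSDS replicate 6.

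The 2 membrane-bound carbonic anhydrases, which supply bicarbonate and protons to the exchangers, varied least among the transport genes. Car14 was at 6.98, 12.0 and 24.7 CPM in mice with CSDS and exercise, 7.86, 11.8 and 28.9 CPM in CSDS mice, and 10, 21.8 and 26.0 CPM in controls. Car12 ranged from 3.22 CPM in control replicate 2 to 120.3 CPM in CSDS replicate 3, and every other library was at 30.3 CPM or more. Clic6, an intracellular chloride channel protein, spanned 3.18 to 146 CPM, Abca4, a retinoid-flipping transporter best known from photoreceptors, 0.916 to 55.5 CPM, Slc2a12, a glucose transporter, 2.45 to 49.4 CPM, and Tmem72, a transmembrane protein, 2.36 to 89.6 CPM. Control replicate 2 was the lowest for Clic6, Slc2a12 and Tmem72, and CSDS with exercise replicate 1 for Abca4.

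Among receptors and signalling proteins, Ace, the angiotensin-converting enzyme, had a lowest, median and highest level of 10.1, 34.7 and 119 CPM in mice with CSDS and exercise, 11, 40.3 and 169.8 CPM in CSDS mice, and 11.4, 85.6 and 187 CPM in controls. Mfrp, a membrane protein related to the frizzled receptors, was at 0.712, 16.6 and 70.1 CPM with CSDS and exercise, 1.68, 16.5 and 122 CPM with CSDS, and 0.499, 43.3 and 109 CPM in controls. Calml4, a calmodulin-like protein, was at 0.756, 4.90 and 11 CPM with CSDS and exercise, 1.45, 3.88 and 16.5 CPM with CSDS, and 0.454, 5.88 and 11.5 CPM in controls. The groups overlapped for each, and CSDS replicates 3 and 5 were above at least 4 of the 6 controls. Kl, the co-receptor klotho, ranged from 1.91 CPM in control replicate 2 to 245 CPM in CSDS replicate 3, and Prlr, the prolactin receptor, from 0.454 to 52.4 CPM. The group medians of Prlr were 18.5 CPM with CSDS and exercise and 10.3 CPM with CSDS, against 19.2 CPM in controls.

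Among junction and keratin genes, Cldn1, a sealing claudin of tight junctions, was at 0.712, 6.59 and 11.7 CPM in mice with CSDS and exercise, 0.796, 4.56 and 18.3 CPM in CSDS mice, and 0.408, 10.5 and 14.8 CPM in controls. Krt8, a keratin of simple epithelia, was at 0.756, 2.43 and 5.43 CPM with CSDS and exercise, 0.545, 2.27 and 7.81 CPM with CSDS, and 0.182, 4.28 and 7.98 CPM in controls. Cldn2, a claudin that forms pores for cations and water, ranged from 0.0908 to 45.2 CPM, and Krt18, the partner of Krt8, from 0.681 to 13.0 CPM. For each, control replicate 2 was the lowest library of the 18.

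Among the regulators, Otx2, a homeodomain factor needed to form and maintain choroid plexus, was at 1.33, 6.22 and 17.4 CPM in mice with CSDS and exercise, 2.11, 6.50 and 24.6 CPM in CSDS mice, and 0.499, 11.6 and 23.6 CPM in controls. Msx1, a homeodomain factor of the embryonic dorsal midline, was at 4.03, 6.19 and 10.6 CPM with CSDS and exercise, 4.44, 10.3 and 24.6 CPM with CSDS, and 1.13, 11.3 and 31.7 CPM in controls. Lmx1a, a LIM homeodomain factor of the roof plate, was at 0.222, 0.778 and 2.38 CPM with CSDS and exercise, 0.463, 1.28 and 4.86 CPM with CSDS, and 0.227, 1.61 and 4.18 CPM in controls. In these regulators the exercise libraries did not reach the highest CSDS and control libraries, yet all groups overlapped. That was not particular to regulators. It held for most of the 32 genes, Enpp2, Ace and Mfrp included, but not for Ttr, Folr1, Steap1, Tmem72, Prlr or Sgms2. Cdkn1c, an imprinted inhibitor of cyclin-dependent kinases, was at 3.43, 6.50 and 10.1 CPM with CSDS and exercise, 5.05, 9.71 and 23.6 CPM with CSDS, and 4.76, 9.93 and 18.6 CPM in controls. Of the lipid and retinoid enzymes, Sgms2, a sphingomyelin synthase, was at 2.76, 7.47 and 15.3 CPM with CSDS and exercise, 2.82, 4.64 and 14.9 CPM with CSDS, and 2.72, 9.52 and 13.1 CPM in controls. Rdh5, a retinol dehydrogenase, ranged from 1.18 CPM in CSDS replicate 6 to 17.3 CPM in CSDS replicate 3.

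**Figure D2:**
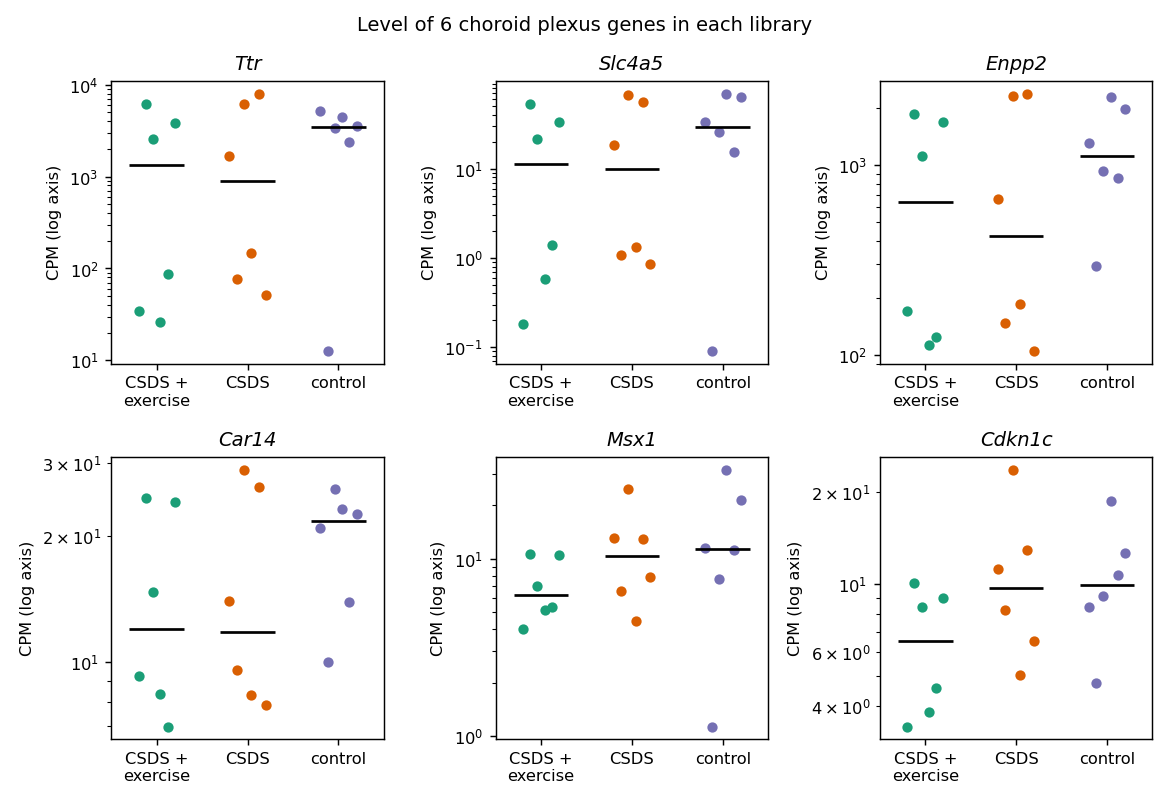
CPM (log axis) of 6 choroid plexus genes in each library, with CSDS plus exercise left, CSDS in the middle and control at the right, and a line at each group's median. Ttr, Slc4a5 and Enpp2 split into high and low libraries in both stressed groups, while the gaps for Msx1 and Cdkn1c are narrower apart from the single low control for Msx1.

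Otx2 binds a TAATCC core, so the promoters of the listed genes were searched for these letters on both strands, from 250 bases before to 50 after the start (RefSeq, GRCm38.p6). Of 25 members with a promoter entry, 5 held the core (20%: Car14, Abca4, Ace, Mfrp and Otx2), against 8.14% of the 27025 genes with an entry. The forkhead core TGTTTA stood in 4 of 25 (16.0%: Car12, Prlr, Cldn2 and Sgms2), against 15.1% of those genes. Enpp2, Folr1, Sostdc1, Ttr, Cdkn1c, Lbp and Clic6 have no entry. A gene counted when any of its promoters held the core, and the 25 members have 37 promoters. By promoter, TAATCC stood in 5 of these 37, against 7.06% of all 32851 promoters. TGTTTA stood in 6 of the 37, against 13.4%. A match is a stretch of letters and not a measured binding site. The promoters of Otx2 itself, Abca4 and Mfrp are shown as examples of those that hold the OTX-type core, picked after the matches were seen. They lie at chr14:48665060-48665359 on the minus strand, chr3:122044210-122044509 on the plus strand and chr9:44101520-44101819 on the plus strand. Capitals mark GGATTA, the core read on the opposite strand, which begins 211, 58 and 134 bases before the start in that order.
Otx2: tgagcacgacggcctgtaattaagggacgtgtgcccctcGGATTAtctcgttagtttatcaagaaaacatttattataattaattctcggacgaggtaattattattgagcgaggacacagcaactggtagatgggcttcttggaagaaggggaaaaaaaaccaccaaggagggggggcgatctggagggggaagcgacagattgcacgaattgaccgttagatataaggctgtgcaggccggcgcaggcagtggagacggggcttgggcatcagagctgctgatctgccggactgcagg
Abca4: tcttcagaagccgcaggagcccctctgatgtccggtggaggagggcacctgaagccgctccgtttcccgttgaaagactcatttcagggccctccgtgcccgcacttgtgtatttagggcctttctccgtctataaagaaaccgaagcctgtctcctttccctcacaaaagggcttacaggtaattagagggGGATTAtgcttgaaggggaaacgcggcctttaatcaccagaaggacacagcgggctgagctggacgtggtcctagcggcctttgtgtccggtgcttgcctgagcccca
Mfrp: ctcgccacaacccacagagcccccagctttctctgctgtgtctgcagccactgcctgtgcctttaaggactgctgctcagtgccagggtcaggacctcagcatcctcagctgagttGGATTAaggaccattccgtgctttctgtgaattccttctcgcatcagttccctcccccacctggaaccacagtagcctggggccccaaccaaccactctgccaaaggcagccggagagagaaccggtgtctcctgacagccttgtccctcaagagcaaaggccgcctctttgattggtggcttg

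Between the groups, none of the 32 genes passed the test in any of the 3 comparisons (edgeR's quasi-likelihood test, adjusted p under 0.05 over all genes), and nearly all had negative fold changes with wide errors. In CSDS against control, 0 of 32 were called, where 0.0% of all genes were called, and 29 of 32 log2 fold changes were negative. Their median was -0.29 (range -0.55 to 0.15), against a median of 4.02e-05 over all genes. In CSDS with exercise against CSDS, 0 of 32 were called (0.0% of all genes), 30 were negative, and the median was -0.38 (range -0.99 to 0.23), against 0.0237 over all genes. In CSDS with exercise against control, 0 of 32 were called (0.0179% of all genes), 31 were negative, and the median was -0.65 (range -1.16 to 0.01), against 0.011. Each pair of these comparisons shares 6 libraries, so their signs are not independent of each other. Nor are the 32 genes independent within a comparison, since 29 of the 31 other than Ttr had the same 11 highest libraries as Ttr. Those libraries were 5 of 6 controls and 3 of 6 mice in each stressed group. Counts out of 32, of signs or of group medians, are therefore not counts of separate results. The group median CPM was below that of controls for 32 of 32 genes in CSDS mice and for 32 of 32 with CSDS and exercise, and was lower with CSDS and exercise than with CSDS alone for 9 of 32. The ranges of each pair of groups overlapped for all 32. Without control replicate 2 both median counts against controls were again 32 of 32, and all 32 ranges overlapped. The shares of all genes with overlapping ranges or lower medians are not given here, so these counts cannot be set against them.

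At an unadjusted p under 0.05, 0 of the 32 passed in each comparison, where 3.51% of all genes did in CSDS against control, 15.6% in CSDS with exercise against CSDS and 11.2% in CSDS with exercise against control. DESeq2 called 0 of the 32 in each, where it called 0.0032%, 1.35% and 0.59% of the genes it tested in these comparisons. In the second it gave an adjusted p to only 12133 genes, and Lmx1a was not among them, so not all 32 were tested there. The median standard error of a log2 fold change was 0.77 or 0.78 for the 32 genes and 0.16 for all genes in each comparison. For Ttr the log2 fold changes were -0.24 ± 1.32 in CSDS against control, -0.33 ± 1.32 in CSDS with exercise against CSDS and -0.57 ± 1.32 in CSDS with exercise against control (SE, 6 mice a group). The 95% interval of the second ran from -3.09 to 2.42, so neither a large fall nor a large rise could be told from no change. With 1 library left out at a time, the Ttr values ran from -0.97 to 0.02 in CSDS against control, -1.02 to 0.35 in CSDS with exercise against CSDS and -1.26 to -0.32 in CSDS with exercise against control. The first was positive without CSDS replicate 2, 4 or 6, and the second without CSDS replicate 3 or 5. Without control replicate 2 the first comparison gave -0.50 and the last -0.84. Without the 4 libraries high in thalamic genes they were 0.04, -0.76 and -0.73, and without these and control replicate 2 they were -0.38, -0.76 and -1.14. With limma voom the values for Ttr were -2.16, -0.83 and -2.99 in these comparisons. None of these passed.

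**Figure D3:**
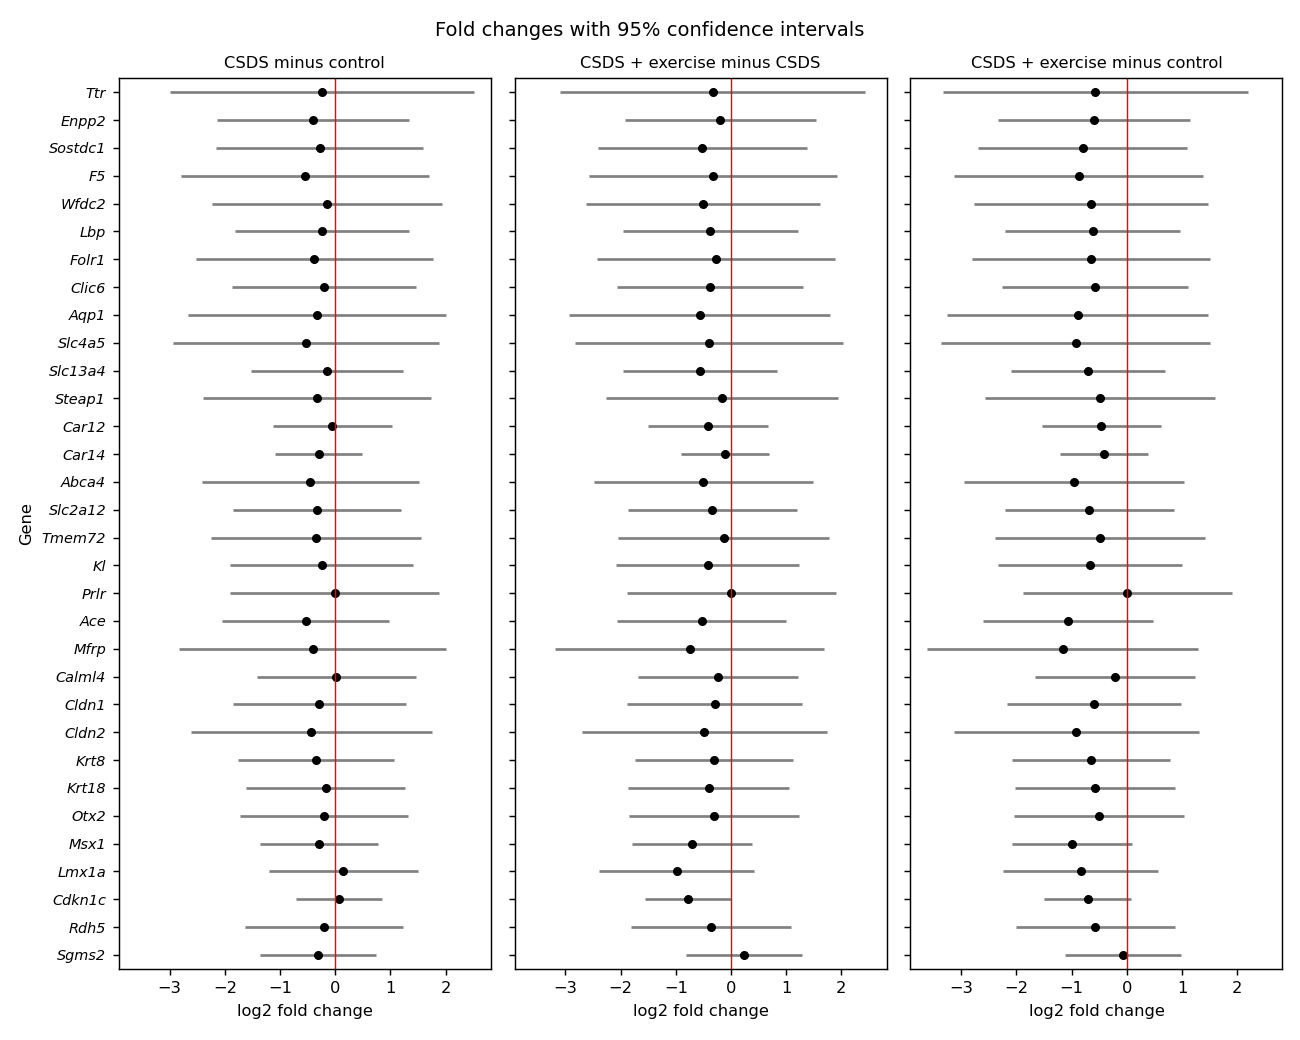
Log2 fold change of each choroid plexus gene with its 95% confidence interval, in the 3 comparisons named above the panels. Intervals cross 0 for every gene in every panel, and most points lie left of the red line at 0.

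The smallest p-values in CSDS against control belonged to Car14 (log2 fold change -0.30 ± 0.38), Ace (-0.53 ± 0.72), Sgms2 (-0.30 ± 0.50) and Msx1 (-0.29 ± 0.51), all with an edgeR adjusted p of 0.993. In CSDS with exercise against CSDS the first was Cdkn1c, at -0.78 ± 0.38 (edgeR adjusted p = 0.323). Lmx1a followed at -0.99 ± 0.67, Msx1 at -0.70 ± 0.52 and Slc13a4 at -0.56 ± 0.67. In CSDS with exercise against control, Msx1 was at -0.99 ± 0.52 (edgeR adjusted p = 0.481), Cdkn1c at -0.71 ± 0.37, Ace at -1.07 ± 0.73 and Lmx1a at -0.84 ± 0.67. Msx1, Lmx1a and Cdkn1c are regulators. For Cdkn1c the 95% interval in CSDS with exercise against CSDS ran from -1.57 to 0.0047. Without CSDS replicate 3, the log2 fold changes in that comparison were -0.42 for Cdkn1c, -0.53 for Lmx1a, -0.33 for Msx1 and -0.11 for Slc13a4. For Slc13a4 it was -0.36 without exercise replicate 1 and -0.99 without exercise replicate 2. With a correction for GC content, that of Cdkn1c was -0.44 in CSDS with exercise against CSDS and -0.42 in CSDS with exercise against control, and that of Msx1 in the first of these was -0.36.

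The leading genes of the comparisons with control also changed in size with single libraries. In CSDS against control, leaving out 1 library at a time gave -0.56 to -0.16 for Car14, -1.04 to -0.25 for Ace, -0.66 to -0.14 for Sgms2 and -0.66 to 0.12 for Msx1. Without control replicate 2 these were -0.44, -0.77, -0.49 and -0.54 in that order, and Msx1 was positive without control replicate 4. Values in CSDS with exercise against control, without control replicate 2, were -1.24 for Msx1, -0.86 for Cdkn1c, -1.30 for Ace and -1.07 for Lmx1a. Without control replicate 4 they were -0.58 for Msx1 and -0.42 for Lmx1a.

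Single libraries moved the size of these medians. In CSDS against control the median log2 fold change of the 32 was -0.52 without control replicate 2, -0.69 without CSDS replicate 3 and -0.66 without CSDS replicate 5. It was between -0.12 and -0.04 without control replicate 4 or 6 or CSDS replicate 2, 4 or 6. In CSDS with exercise against CSDS it was 0.05 without CSDS replicate 3 and -0.03 without CSDS replicate 5, and -0.19 to -0.17 without exercise replicate 1, 4 or 5. It was -0.59 to -0.58 without CSDS replicate 2, 4 or 6, -0.61 without exercise replicate 6 and -0.87 without exercise replicate 2. In CSDS with exercise against control it was -0.89 without control replicate 2, -0.41 without control replicate 4, -0.43 without exercise replicate 1 and -1.11 without exercise replicate 2. Without the 4 libraries high in thalamic genes, a setting added after the data were seen, it was -0.30 in CSDS against control, -0.76 in CSDS with exercise against CSDS and -1.10 in CSDS with exercise against control. Without these 4 and control replicate 2 it was -0.70, -0.76 and -1.49 in these comparisons. None of the 32 was called by edgeR in any of these fits.

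With limma voom and quality weights, Cdkn1c alone of the 32 was called in CSDS with exercise against CSDS (log2 fold change -0.91, limma adjusted p = 0.0448), in a fit that called 33.3% of all genes. It called 0 of 32 in CSDS against control (0.0% of all genes) and 0 of 32 in CSDS with exercise against control (1.09%).

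With the log2 CPM of Ttr added to the model as a covariate, an alternative chosen after the data were seen, the other 31 genes had median log2 fold changes of 0.01 in CSDS against control, -0.10 in CSDS with exercise against CSDS and 0.00 in CSDS with exercise against control. Their median standard error fell to 0.26 to 0.28, and 0 of 31 were called. In that model Cdkn1c was at -0.67 ± 0.20 in CSDS with exercise against CSDS (edgeR adjusted p = 0.159), and Prlr at 0.72 ± 0.24 in CSDS with exercise against control. Neither passed over all genes.

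The genes moved together from library to library. Over 18 libraries, 31 of 31 other members passed the test of correlation with Ttr (Pearson r above 0.5, permutation test with adjusted p under 0.05), where 2.76% of all genes passed. Of these members, 31 of 31 passed again without control replicate 2, and 31 of 31 without the 4 libraries high in thalamic genes. Without the 2 libraries farthest from the median of Ttr, control replicate 2 and CSDS with exercise replicate 4, 30 of 31 passed. Since the libraries form a high and a low set, no single r over all 18 is given. The widest gap was 3.48 of a 9.28 log2 range, or 37.5%, less than the 50% set as the mark of separate clusters. The 11 libraries with the most Ttr were also the 11 highest for 29 of 31 other members, all but Msx1 and Lmx1a, and for 0.884% of all genes.

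Within the 11 high libraries, the median r with Ttr was 0.78 over the 31 genes (0.28 to 0.97), and 29 had an r above 0.5, where 5.58% of all genes did. Folr1 had r = 0.97 (rho = 0.96, r = 0.94 without the 2 libraries farthest from the median Ttr) and Steap1 r = 0.95 (rho = 0.97, r = 0.97). Both had p = 1e-05, the smallest that 100000 permutations give, and an adjusted permutation p of 0.0335, so 2 of 31 were called where 0.0179% of all genes were. By Spearman's rho their adjusted permutation p was 0.1 for Folr1 and 0.0837 for Steap1. Ttr against itself also had 0.0837, so no gene could pass by rho in these 11 libraries. Wfdc2 followed at r = 0.91 and Calml4 at r = 0.88. The lowest were Msx1 at r = 0.28 (rho = 0.25, permutation p = 0.406), Cdkn1c at r = 0.34 (rho = 0.26, permutation p = 0.305) and Slc13a4 at r = 0.54.

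Within the 7 low libraries the median r was 0.75 (-0.54 to 0.89), and 25 of 31 genes had an r above 0.5, where 14.8% of all genes did. None was called there, but no gene could be. With so few orders of 7 libraries, even Ttr against itself had an adjusted permutation p of 0.664. The count above 0.5 depended on control replicate 2. Without it, 16 of 31 had an r above 0.5 in the remaining 6 libraries, where 19.9% of all genes did, and the median r was 0.50. Car14 had r = -0.54 and Enpp2 r = -0.38 in the 7 libraries, and -0.24 and 0.46 without control replicate 2. Within each group of 6 mice, with 720 orders, 0 of 31 were called. With so few orders a call over all genes was hardly possible, so this count does not tell whether the members moved together.

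**Figure D4:**
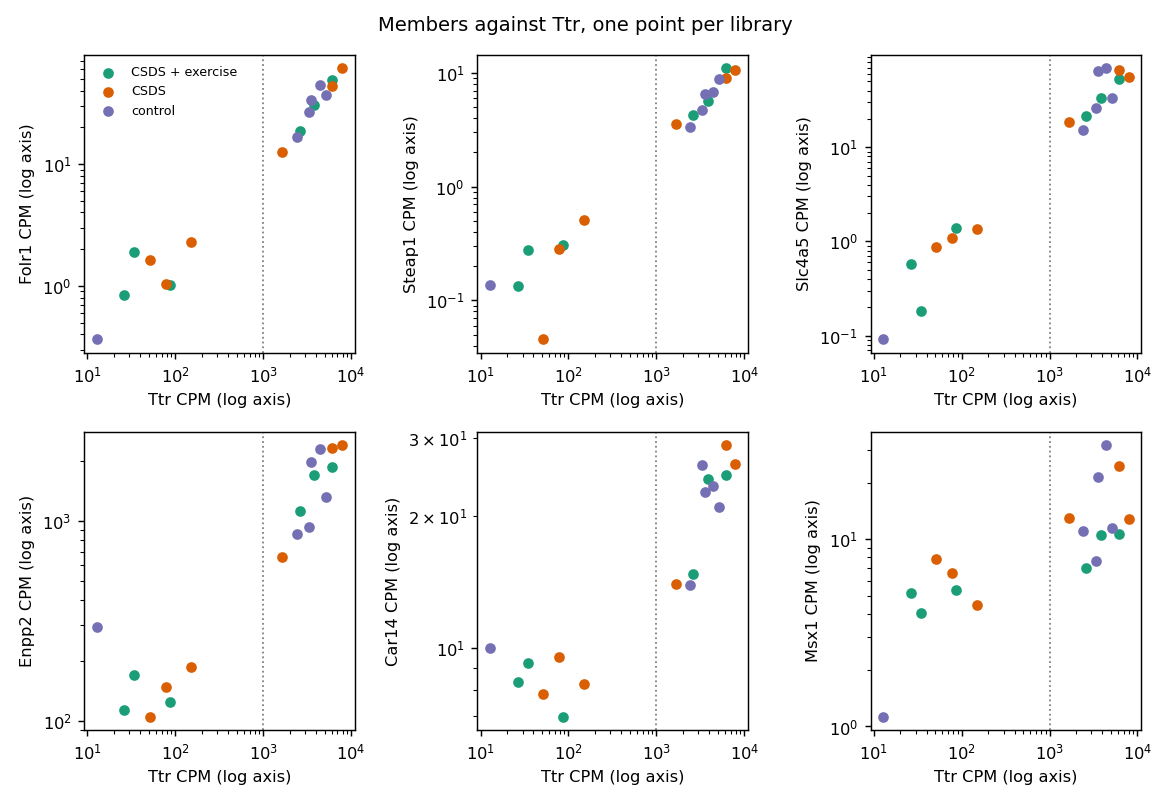
CPM of 6 members against CPM of Ttr, both on log axes, with 1 point per library coloured by group and a dotted line at 1000 CPM of Ttr. Folr1, Steap1 and Slc4a5 rise with Ttr on the right of the line, Car14 and Enpp2 are flat or scattered on its left, and for Msx1 the libraries on both sides overlap.

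Ttr was not the member most like the others. Over the 496 pairs of members in the 11 high libraries, r had a median of 0.84, quartiles of 0.75 and 0.92, and a range of 0.21 to 1.00. The closest pairs were Abca4 with Slc4a5 and Krt18 with Rdh5 (r = 0.99 for the second). Lbp had the highest median r with its fellow members, 0.94, followed by Clic6, Krt18, Rdh5 and Kl at 0.93. Ttr and Steap1 were at 0.78, Prlr at 0.72, Msx1 at 0.70 and Cdkn1c at 0.69. Steap1 and Folr1 were thus nearest to Ttr, while most other members were nearer to each other. Over the 31 genes, r with Ttr had a correlation of -0.41 with GC content and -0.08 with log2 exon length, as a description.

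Lists for other cells and regions show which transcripts shared this pattern. Of 30 further choroid plexus genes, 29 moved with Ttr over 18 libraries by the same test, and 22 had the same 11 highest libraries. In the group comparisons 0 of 30 were called, with median log2 fold changes of -0.19 in CSDS against control, -0.33 in CSDS with exercise against CSDS and -0.52 in CSDS with exercise against control. Igfbp2, an insulin-like growth factor binding protein, had the smallest p of the 30 in the second, at -0.96 ± 0.51 (edgeR adjusted p = 0.358), and in the last, at -1.07 ± 0.51 (edgeR adjusted p = 0.445). Slc16a12, a monocarboxylate transporter, had the smallest in the first, at -0.37 ± 0.31. Slc12a2, the sodium, potassium and chloride cotransporter of the apical membrane, was at 97.4 CPM with CSDS and exercise, 68.2 CPM with CSDS and 89.4 CPM in controls (medians), and had an edgeR log2 fold change of 0.38 ± 0.25 in CSDS with exercise against CSDS.

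Ciliated ependyma, the neighbouring lining of the ventricle, moved with Ttr in part. Of 24 ependymal genes, 9 passed over 18 libraries and 0 had the same 11 highest libraries, and their median r in the 11 high libraries was 0.47. Of these, Foxj1, the regulator of motile cilia, had r = 0.42 and Ccdc153 r = 0.63. Their mean level was -0.37 on the log2 CPM scale in control replicate 2, the lowest of the 18 libraries, against 0.48 to 2.65 in the others. Of 20 meningeal fibroblast genes 2 moved with Ttr, of 15 endothelial genes 1, of 14 thalamic genes 1, and of 10 dentate and 12 neocortical genes 0 each. The lists share some genes. Igf2, 1 of these 2 fibroblast genes, is also among the further choroid plexus genes, as is Mia of the ependymal list. In the 11 high libraries r with Ttr was -0.31 for Col1a1 and -0.30 for Dcn, both of fibroblasts, -0.25 for the endothelial claudin Cldn5, -0.14 for the thalamic factor Tcf7l2, 0.20 for Prox1 and -0.06 for the cortical gene Lamp5. With control replicate 2 among the 7 low libraries, a high r with Ttr there was not particular to choroid plexus genes. There 20 of 24 ependymal genes (83.3%) had an r above 0.5, with a median of 0.64, beside 25 of 31 members (80.6%), and so did 12 of 20 meningeal fibroblast genes (60.0%), with a median of 0.58, where 14.8% of all genes did. Dcn had r = 0.89 and Foxj1 r = 0.56 in these 7 libraries, while the median r was -0.40 for endothelial and -0.69 for neocortical genes. Without the 2 of these libraries farthest from their median Ttr, control replicate 2 among them, r was 0.84 for Dcn and 0.30 for Foxj1. It fell from 0.71 to 0.04 for Ccdc153 and went from -0.69 to 0.05 for Lamp5. Counts for these lists without control replicate 2 were not taken.

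Between the groups 0 genes of these lists were called, with log2 fold changes mostly of 1 sign in several of them. Ependymal fold changes were not taken without control replicate 2, so how far those against control rest on it was not tested. The mean log2 CPM of the ependymal genes was -0.37 in that library and 1.27 to 2.09 in the other controls. Group medians of this mean were 1.45 with CSDS, 1.5 in controls and 1.8 with CSDS and exercise. By median, CSDS mice thus showed no rise over controls. With all 18 libraries, ependymal genes were positive for 21 of 24 in CSDS against control (median log2 fold change 0.18). They were positive for 16 of 24 in CSDS with exercise against CSDS (0.15) and 19 of 24 in CSDS with exercise against control (0.29). Most choroid plexus genes had the opposite sign in these fits. Meningeal fibroblast genes were positive for 19 of 20 in the first (0.19), negative for 17 of 20 in the second (-0.34) and negative for 12 of 20 in the third (-0.08). Thalamic genes were negative for 12 of 14 in the first (-0.77), positive for 14 of 14 in the second (1.11) and positive for 11 of 14 in the third (0.45). How far the amount of ventricular, meningeal or thalamic tissue in each sample set the levels of the 32 genes was not tested.

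**Figure D5:**
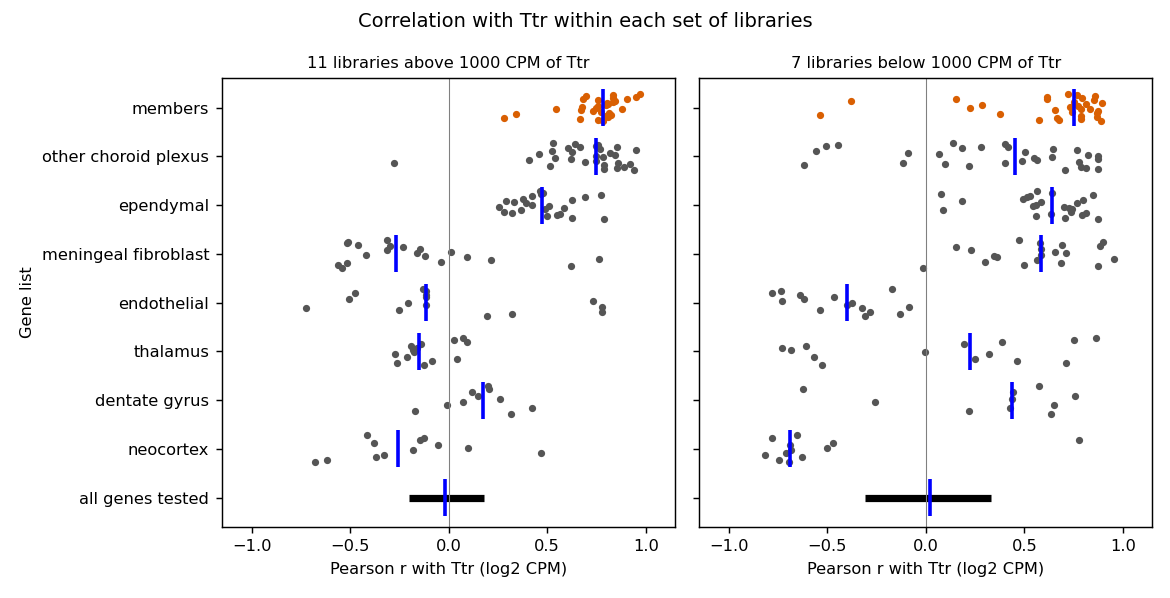
Pearson r with Ttr (log2 CPM) for each gene of 8 lists, within the 11 libraries above (left) and the 7 below (right) 1000 CPM of Ttr. Each point is a gene, the blue line is the list's median, and the black bar spans the middle of all genes tested (lower to upper quartile). Listed and further choroid plexus genes lie to the right in the left panel, with medians of 0.78 and 0.75, against -0.02 for all genes.

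The genes outside the list that were most like Ttr, by Pearson r of log2 CPM over 18 libraries, were Kcne2, 1500015O10Rik, Kcnj13, Prr32, Oca2, Defb11, Cdh3, Slco1a5, Igf2 and Lepr, and for each of the 10 the same 11 libraries were the highest. Genes picked by that r would tend to share these libraries, so the last point is no separate result. Kcne2, 1500015O10Rik, Kcnj13, Slco1a5 and Igf2 are also among the further choroid plexus genes described above. Kcne2 and Kcnj13 encode a subunit of potassium channels and an inward rectifier. Kcne2 had a lowest, median and highest level of 0.178, 7.02 and 19.7 CPM with CSDS and exercise, 0.509, 4.54 and 29.8 CPM with CSDS, and 0.136, 15.4 and 28 CPM in controls. Within the 11 high libraries Defb11, a beta-defensin, had r = 0.97 with Ttr, with an adjusted permutation p of 0.0335, and was called there beside Folr1 and Steap1. It was low, reaching 1.03 CPM with CSDS and exercise, 1.36 CPM with CSDS and 0.978 CPM in controls. 1500015O10Rik had r = 0.95 and Prr32 r = 0.93, and the lowest of the 10 were Igf2, a growth factor, at r = 0.62 and Cdh3, a cadherin, at r = 0.66.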

How the data were processed

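The authors deposited estimated counts per gene and library (expected counts that need not be whole), not normalized. The submitters' processing notes name fastp, HISAT2 and RSEM with GRCm38 (mm10). Not given in the sources used here are their versions, the annotation release and the strand setting. Values that were not whole made up 22.7% of those above 0, and counts were rounded before testing. Since RSEM shares ambiguous reads among genes, counts of near-identical copies or overlapping genes are uncertain. Symbols matched 51884 of 57180 identifiers, and 0 pairs of libraries were identical. No library was excluded for its depth.

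Genes were filtered with filterByExpr (minimum count 10, total 15), scaled by TMM and tested with edgeR 4.0.16 (R 4.3.3, quasi-likelihood, all 18 libraries, 1 term per group), with Benjamini-Hochberg adjustment over 16738 genes. DESeq2 1.42.0 and limma 3.58.1 (voom) were alternatives. Correlations used log2 CPM with a prior count of 2, two-sided with 100000 permutations (every order for 7 or 6 libraries). In counts simulated from these libraries, 71.6% of genes changed 2-fold were recovered in CSDS against control, 70.1% in CSDS with exercise against CSDS and 76.1% in CSDS with exercise against control (16569, 16568 and 16557 genes tested). These shares are over genes of ordinary spread as well as variable ones, and were not taken for the 32 genes alone. Lengths and GC came from GENCODE M21 exons, promoters from RefSeq. The members, lists and tests were chosen with earlier results of these data known. Any member could be named. Of other genes, the rule named 10 with the highest r with Ttr (predicted genes left out), up to 4 further choroid plexus genes with the smallest p per comparison, and 8 genes of neighbouring tissue. The Ttr covariate, the split at 1000 CPM and the fits without libraries high in thalamic genes (mean log2 CPM above 4) were added after the data were seen. Alternatives were other scalings, filters, a GC correction, the replicate number as block, only the groups compared, and leaving out each library.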

Additional observations from a re-analysis of the deposited data

Results flagged for a closer look

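Control replicate 2 lay far below the other 5 controls for 22 of the 32 genes and for their summed level. In each, its gap to the next control divided by the range of the 6 controls on the log2 scale was above Dixon's 95% critical value for 6 samples. That ratio was 0.872 for Ttr, 0.72 for Sostdc1, 0.765 for F5, 0.783 for Wfdc2 and 0.757 for Lbp. Among transport genes it was 0.786 for Folr1, 0.714 for Clic6, 0.728 for Aqp1, 0.747 for Slc4a5, 0.717 for Slc13a4, 0.737 for Steap1, 0.805 for Car12, 0.706 for Slc2a12 and 0.68 for Tmem72. It was 0.776 for Kl, 0.828 for Prlr, 0.738 for Mfrp and 0.741 for Calml4, 0.78 for Cldn1, 0.84 for Cldn2 and 0.639 for Krt8, and 0.727 for Otx2. For the summed level it was 0.754.

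In all, 99 groups of 6 were examined, and chance alone puts about 1 in 20 past the critical value. All 23 that passed were controls with the same lowest library, and since the genes move together these are not independent. That library also had the lowest dentate level and the highest neocortical level of the 18. Their part in its low choroid plexus levels was not tested.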

How the results depend on the processing

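None of the 32 genes was called by edgeR or DESeq2 under any alternative, but limma voom called 1 in CSDS with exercise against CSDS, Cdkn1c. Leaving out each library in turn gave medians of the 32 log2 fold changes from -0.69 to -0.04 in CSDS against control, -0.87 to 0.05 in CSDS with exercise against CSDS and -1.11 to -0.41 in CSDS with exercise against control, with 0 genes called each time. With limma voom, which gives libraries unequal weights, the medians were -0.79, -0.42 and -1.22 in the same order. With the Ttr level as covariate they were 0.01, -0.09 and 0.00 over 32 genes, Ttr among them. Scaling by RLE or library size, other filters on low counts, a GC correction and a fit of only the 2 groups compared moved no median by more than 0.04. For single genes the GC correction did more: Cdkn1c was at -0.44 and Msx1 at -0.36 in CSDS with exercise against CSDS, against -0.78 and -0.70 without it.

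The count of 31 members moving with Ttr over 18 libraries was 31 under each leave-one-out fit, another prior count or scaling, Spearman's rho, deviations from the group means, and the mean of the other members in place of Ttr. It was 30 without the 2 libraries farthest from the median of Ttr. It was 2 within the 11 high libraries and 0 within the 7 low ones, where no gene could be called. It was 0 within CSDS with exercise, 0 within CSDS and 0 within control, where a call was hardly possible. The median summed level of controls was 1907 CPM without Ttr and 784 CPM without Ttr and Enpp2.

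The labels number the mice 1 to 6 in each group. Deviations of same-numbered libraries had a median correlation of -0.096 (-0.465 to 0.255), against 0.034 (-0.491 to 0.45) for differently numbered ones. No shared effect of the number was seen, which does not tell how the numbers were given. With the replicate block the medians were -0.56, -0.31 and -0.84 in the same order, with 0 genes called in each, and Ttr was at -1.25 in CSDS against control, -0.04 in CSDS with exercise against CSDS and -1.29 in CSDS with exercise against control. Counts limit the lowest members, since 8 of the 32 had under 10 counts in their lowest library.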

Other observations

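Among the 11 libraries above 1000 CPM of Ttr, the share of Ttr in the counts of the 32 genes ran from 50.5% to 70.3%. It was set against 3 library measures after the data were seen. With total counts, Pearson r was -0.71 (permutation p = 0.0169, adjusted over the 3 p = 0.0507) and Spearman's rho -0.56 (p = 0.0777), with r = -0.59 without the 2 most extreme libraries. With the share of mitochondrially encoded counts r was 0.45 (permutation p = 0.166, adjusted p = 0.249, rho = 0.38), and with the share of all counts taken by the 32 genes r was 0.22 (p = 0.517, rho = 0.25). None of the 3 passed.

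With the Ttr level as covariate, the other members with an unadjusted edgeR p under 0.05 were Sgms2 at 0.39 ± 0.18 in CSDS with exercise against CSDS, and Calml4 at 0.49 ± 0.23 and Cdkn1c at -0.43 ± 0.21 in CSDS with exercise against control (log2 fold change ± SE).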
